A study of Homo sapiens with 6 samples.

Results

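The genes described here encode 4 families of guidance molecules, namely the ephrins and their Eph receptors, the semaphorins with the plexins and neuropilins, the Slit ligands with the Robo receptors, and the netrins with DCC and the UNC5 receptors. They were taken by gene symbol alone, without use of any measured value, and comprised 69 of the 17687 named genes on the array, each with 1 probe set. By role, 36 were ligands and 33 were receptors. A431 is an established human squamous carcinoma line, and CD109 is a GPI-anchored protein of the cell surface. Gene expression was measured on Affymetrix Clariom S human arrays in total RNA from 3 clones of CD109-KO cells (26, 32 and 180) and from 3 samples of parental A431 cells (5, 2 and 6), to ask which genes differ when CD109 is lost. Both groups grew as monolayers in complete medium. The knockout cells had been transfected with CRISPR/Cas9 and 1 of 2 guide RNAs, against exon 1 or exon 2 of CD109, and each clone descended from 1 sorted cell that stained negative for CD109. The comparison is described as having 3 biological replicates run in technical triplicate, and 1 array per clone or parental sample was used here. The sources used here do not give which guide made which clone, or how the parental samples were grown apart, and the p-values therefore cover the spread between these 6 arrays, part of which may be technical.

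Guidance molecules were first known for steering growing axons, and they also control adhesion, repulsion and migration of epithelial, endothelial and tumour cells. Ephrins are tethered to the membrane and bind Eph receptor tyrosine kinases on the neighbouring cell. Class 3 semaphorins are secreted and signal through neuropilins and plexins, Slits signal through Robo receptors, and netrins through DCC and UNC5 receptors.

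The values are deposited log2 signals, and every value of a single array below is given in the order clones 26, 32 and 180, then parental samples 5, 2 and 6. Calls of higher or lower required an adjusted p of at most 0.01, from limma over all gene probe sets, and a fold change of at least 2. The background of an array was set at the 95th percentile of its 349 olfactory receptor genes, and it averaged 5.59 in the CD109-KO arrays and 4.14 in the parental arrays. A signal of 5 was therefore below the background in a knockout array and above it in a parental one. CD109 itself measured 3.64, 3.45 and 3.62 in the clones and 7.57, 7.75 and 8.13 in the parental samples, and was at least 4.69-fold lower in the clones (adjusted p = 1.09e-07 from limma). Such minimum folds, here and below, are given on the deposited scale alone. Under another scaling of the arrays a difference can be smaller than its minimum or turn its sign. The sources used here do not give where its probes lie relative to the edited exons. EGFR, the amplified receptor that defines A431, measured 5.45, 5.48 and 6.14 in the clones and 11.32, 11.64 and 11.26 in the parental samples. Its log2 difference was -5.72, and EGFR was above the background in 3 of 3 parental arrays and in 1 of 3 knockout arrays. All 13 measured markers of squamous epithelium and A431 were lower in the clones, with a summed linear signal of 1288 to 1551 against 16726 to 21406, and CDH1, EPCAM and DSG3 lay below the background in every knockout array. Of 32 measured genes that every human cell needs, 21 were also lower, and over all genes 26.8% were called lower. Across genes, arrays of 1 group correlated at 0.958 to 0.978, and arrays of different groups at 0.519 to 0.600. In RNA from whole cultures, fewer cells of a type and less RNA per cell cannot be told apart.

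Relative to parental cells, 27 of the 69 guidance genes were called higher and 13 lower in CD109-KO cells, and 29 did not pass. Over all genes 63.1% were called, 36.2% as higher and 26.8% as lower, against 39.1% and 18.8% of the guidance genes, so that the share of called members lay near that of the array as a whole. The median log2 difference was 0.54 over the guidance genes and 0.51 over all genes. The groups did not overlap for 34 members with higher and 18 with lower values in the clones, beside 48.9% and 31.8% of all genes (80.7% in either direction). Among ligands 17 were higher and 8 lower, and among receptors 10 were higher and 5 lower.

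**Figure D1:**
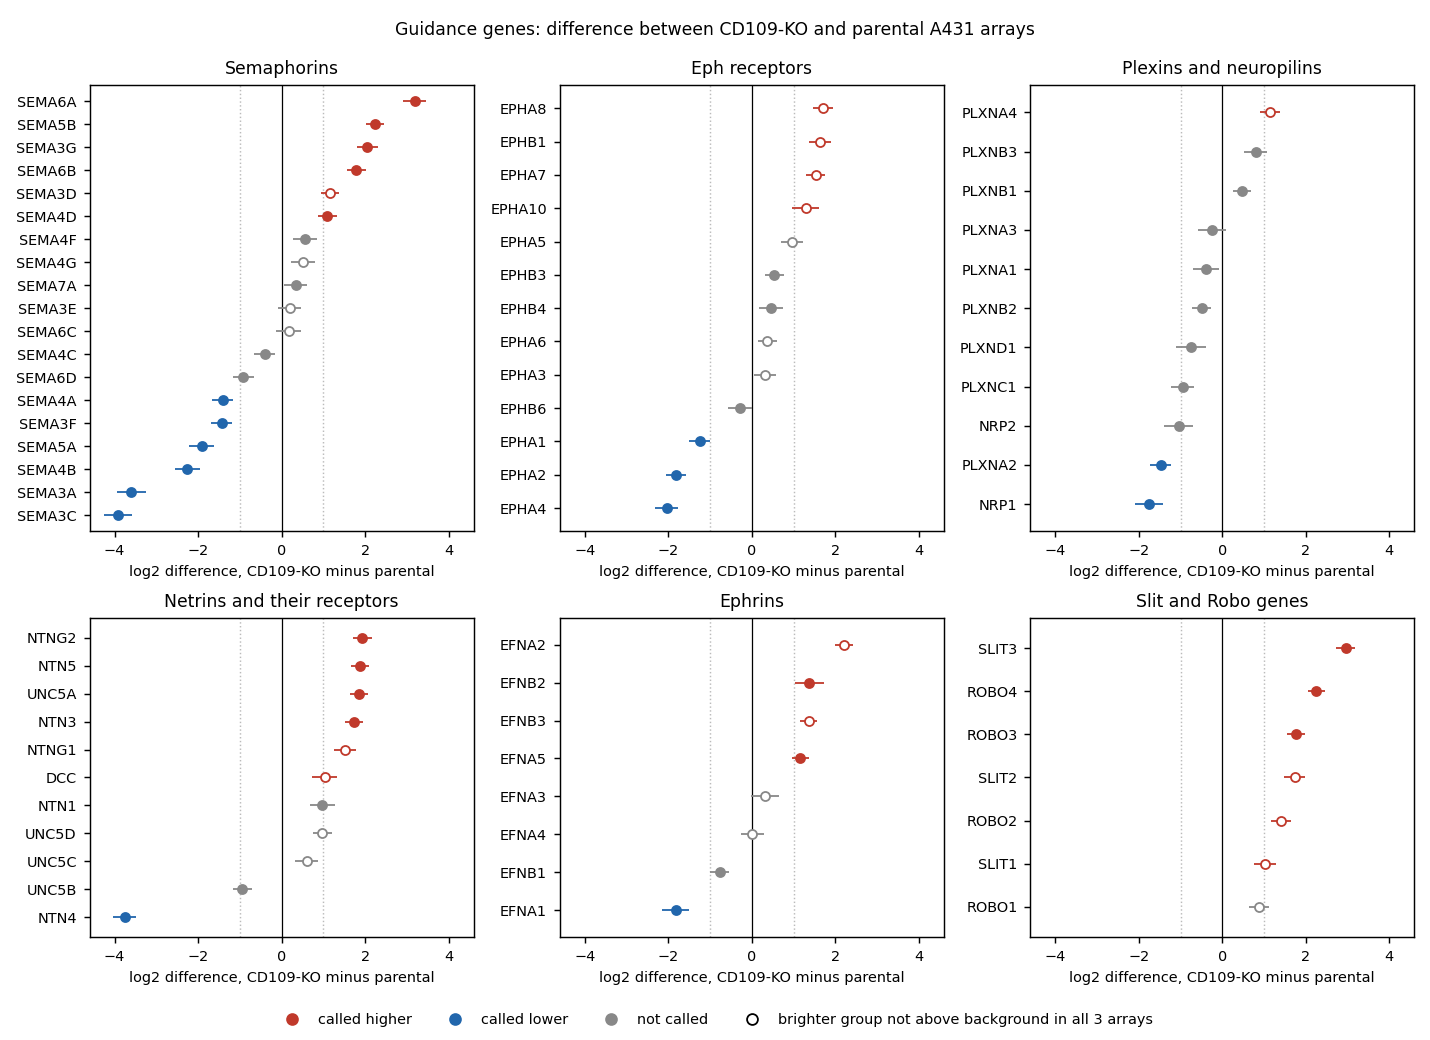
Measured log2 difference (CD109-KO minus parental, x axis) of the 69 guidance genes by family, with bars of 1 standard error from limma, dotted lines at a fold change of 2, and open circles where the brighter group was not above the background in all 3 arrays. The 27 genes called higher and the 13 called lower occur in all families except that no Slit or Robo gene was called lower, and a difference whose dimmer group lies under the background is a measured difference and not a bound.

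The rises and falls differed in how far they stood above the background. The parental arrays were above it in 3 of 3 for all 13 falls, whereas the knockout arrays were above it in 3 of 3 for 14 of the 27 rises (19.0% of all genes rose and 26% fell under the same requirement). Another 9 rises, EFNB3, EPHA7, EPHA10, SEMA3D, PLXNA4, ROBO2, SLIT1, NTNG1 and DCC, were under the background on every array of both groups, and no fold is given for them. The remaining 4, EFNA2, EPHA8, EPHB1 and SLIT2, were above it in 1 or 2 knockout arrays and in no parental array. In all, 15 members were never above the background, beside 23.5% of all genes.

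**Figure D2:**
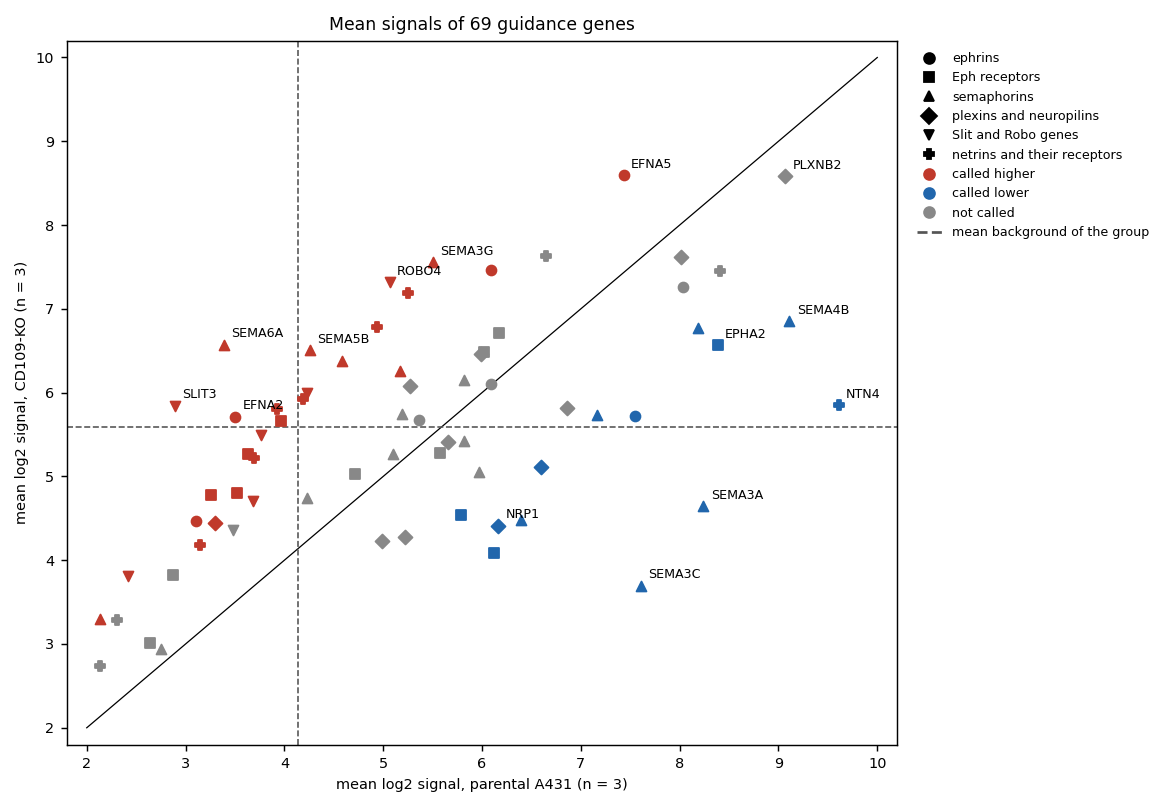
Mean log2 signal of each guidance gene in parental A431 (x axis, n = 3) and in CD109-KO cells (y axis, n = 3), with the line of equal signal and dashed lines at the mean background of each group. SEMA3A and SEMA3C lie above the parental background of 4.14 and below the knockout background of 5.59, SEMA6A and SLIT3 lie on the opposite side, and a number of the red points for genes called higher sit below both lines.

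Of the 19 semaphorins 6 were called higher and 6 lower, beside 36.2% and 26.8% of all genes, and 7 did not pass. The clones were above the background on all 3 arrays for 5 of the 6 rises. The secreted ligands SEMA3C and SEMA3A were above the background in the parental arrays alone, and the transmembrane ligand SEMA6A in the clones alone. In all, 13 of the 69 members were above it on every parental array and on no knockout array. The same held for 3236 of all 17687 genes and for 5 of the 32 genes that every cell needs. A signal below the background of the clones is therefore not taken as absence. SEMA3C (chromosome 7, 80742538 to 80922389 in GRCh38.p14) measured 3.84, 3.56 and 3.69 in the clones and 6.75, 7.84 and 8.23 in the parental samples. All clones lay below the background and all parental samples above it, and the signal was at least 4.06-fold lower (adjusted p = 2.22e-06 from limma). SEMA3A, the classical secreted repellent of axons that binds NRP1 (chromosome 7, 83955777 to 84492725), measured 5.19, 4.16 and 4.59 against 8.32, 7.61 and 8.79, and was at least 6.30-fold lower (adjusted p = 4.30e-06 from limma). The groups stood more than 2 log2 units apart, although SEMA3A was among the 3 members whose clones spread over more than 1 log2 unit.

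SEMA4B, a transmembrane ligand of class 4, measured 7.06, 6.88 and 6.62 in the clones and 8.84, 9.75 and 8.74 in the parental samples. It was above the background on all 6 arrays and fell by 2.26 on the log2 scale (standard error 0.29, adjusted p = 3.61e-05 from limma), and by 0.51, without passing, when the arrays were centred on the genes that every cell needs. SEMA5A measured 4.43, 4.73 and 4.28 against 5.83, 7.0 and 6.35, and was at least 1.75-fold lower (adjusted p = 0.000141 from limma), but did not pass after the same centring (difference -0.17). SEMA3F, a secreted ligand of NRP2 (chromosome 3, 50155058 to 50189075), measured 5.66, 5.62 and 5.94 against 6.96, 7.62 and 6.93 and fell by 1.43 (adjusted p = 0.000333), and SEMA4A fell by 1.41 (adjusted p = 0.000259), but both differences turned positive, at 0.32 and 0.33, when the arrays were centred on the genes that every cell needs. SEMA6D was below the background in the clones alone and at least 1.31-fold lower, and its difference of -0.92 did not pass the fold threshold.

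SEMA6A (chromosome 5, 116443555 to 116574823) measured 6.43, 6.71 and 6.58 in the clones and 2.98, 3.25 and 3.92 in the parental samples. It was above the background in all clones and in no parental sample, and was at least 5.41-fold higher on the deposited scale (adjusted p = 1.84e-06 from limma). Its relative SEMA6B measured 6.38, 6.13 and 6.60 against 4.68, 4.70 and 4.38, a rise of 1.79 with both groups above the background (adjusted p = 3.51e-05), and of 0.81 and 0.95, without a call, after centring on antigenomic and on hybridization controls. SEMA6A and SEMA6B are transmembrane ligands of the A-type plexins. SEMA3G, a secreted class 3 ligand (chromosome 3, 52433035 to 52445103), measured 7.75, 7.33 and 7.59 against 5.46, 5.87 and 5.17, and rose by 2.05 (standard error 0.25, adjusted p = 2.36e-05 from limma). SEMA5B measured 6.47, 6.51 and 6.54 against 4.07, 4.24 and 4.48, where the parental signal was above the background on 2 of 3 arrays, and rose by 2.24 (adjusted p = 5.11e-06).

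Both directions occurred within classes 3, 4 and 5. Of 6 class 3 semaphorins 2 were higher and 3 lower, of 6 class 4 semaphorins 1 was higher and 2 lower, the 2 class 5 genes went opposite ways, and of 4 class 6 genes 2 were higher and 0 lower. SEMA4D, the ligand of PLXNB1, rose by 1.09 (adjusted p = 0.00103 from limma), and without parental sample 5 its difference of 0.93 no longer reached the fold threshold. After centring on antigenomic or hybridization controls the difference of SEMA4D was 0.11 or 0.25 and did not pass. The other members that did not pass were SEMA4F, SEMA4G, SEMA7A, SEMA3E, SEMA6C and SEMA4C, with differences from -0.40 to 0.56. The median of the 19 semaphorins was 0.19 as deposited and -0.07 after a repeated quantile normalization. It lay at 1.94 after centring on the genes that every cell needs and at -0.79 after centring on antigenomic background controls. The median over all genes was 0.51, 0.31, 2.25 and -0.47 in the same order. Each centring shifts every gene alike, so that a changed sign of a family median, here or below, is no result about the family.

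**Figure D3:**
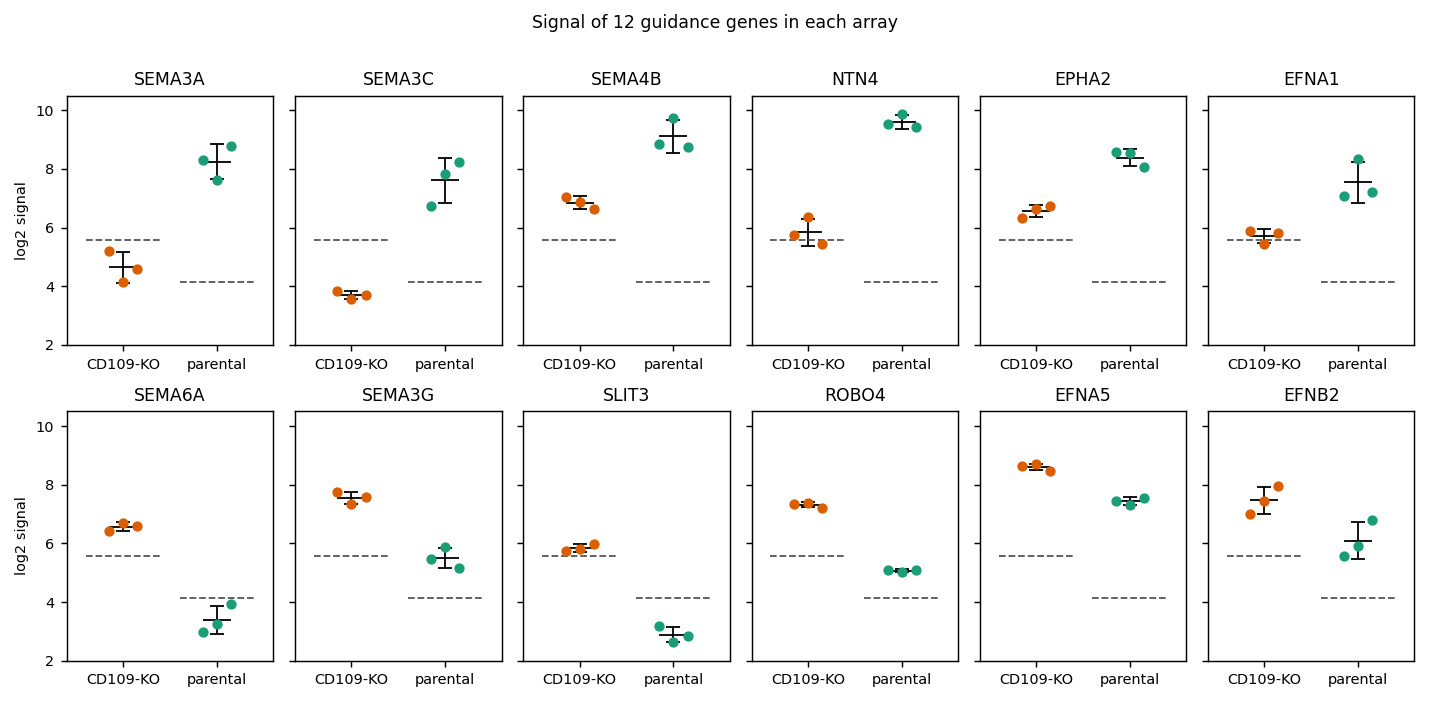
Log2 signal (y axis) of 12 guidance genes on each array, with points from left to right for clones 26, 32 and 180 and for parental samples 5, 2 and 6, horizontal bars for the mean, error bars for the SD (n = 3) and dashed lines for the mean background of each group. SEMA3A and SEMA3C drop from well above the parental background to below the knockout background, NTN4 drops to the background, and SEMA6A and SLIT3 rise from below the background to above it.

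SEMA3F and SEMA3G are secreted semaphorins that lie 2.24 Mb apart on chromosome 3 and moved in opposite directions, and their promoters are shown because both contain an E-box of the letters CAGGTG, a motif bound by factors such as SNAI1 and ZEB1. The windows cover 250 bases before to 50 bases after the start, as recorded by RefSeq for GRCh38.p14, and are printed 5′ to 3′ on the strand of the gene with the E-box in capitals. The SEMA3F window, the most upstream of 3, is chr3:50154808-50155107 on the plus strand, with its E-box starting 137 bases before the start, and the other 2 SEMA3F windows hold none. The SEMA3G window is chr3:52445054-52445353 on the minus strand, with its E-box 106 bases before the start.
SEMA3F: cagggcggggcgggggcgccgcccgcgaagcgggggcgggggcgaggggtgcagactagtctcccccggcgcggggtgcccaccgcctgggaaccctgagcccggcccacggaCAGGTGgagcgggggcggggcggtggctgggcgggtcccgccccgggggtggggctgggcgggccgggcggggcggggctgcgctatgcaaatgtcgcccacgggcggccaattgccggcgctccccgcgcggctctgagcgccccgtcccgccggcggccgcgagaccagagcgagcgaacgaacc
SEMA3G: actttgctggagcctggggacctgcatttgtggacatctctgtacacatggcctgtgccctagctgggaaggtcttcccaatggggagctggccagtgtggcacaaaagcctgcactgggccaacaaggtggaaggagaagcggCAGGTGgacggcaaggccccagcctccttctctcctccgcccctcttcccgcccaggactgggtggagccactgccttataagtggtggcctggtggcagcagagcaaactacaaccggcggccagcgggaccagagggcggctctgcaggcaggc
Promoter windows were found for 58 of the 69 members. The motif, searched on both strands, was present in 14 of 87 member windows (16.1%), against 20.6% of 35116 windows of all genes. It was found in 16.7% of the windows of members called higher, in 19.0% of those called lower and in 13.9% of those that did not pass.

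Among the 11 plexins and neuropilins, the receptors of the semaphorins, 1 was called higher and 2 lower, beside 36.2% and 26.8% of all genes. The other 8 did not pass. NRP1, the co-receptor of SEMA3A, measured 4.91, 3.53 and 4.80 in the clones and 6.22, 5.99 and 6.28 in the parental samples. It was below the background in all clones, where clone 32 stood lowest, and at least 1.49-fold lower on the deposited scale (adjusted p = 0.000641 from limma). After centring on the genes that every cell needs its difference was -0.0022, and this minimum does not hold there. PLXNA2 measured 5.41, 5.03 and 4.90 against 6.93, 6.52 and 6.33 and was at least 2.01-fold lower on the deposited scale (adjusted p = 0.000231 from limma). Its measured difference of -1.48 turned to 0.27 after centring on the genes that every cell needs, where the minimum does not hold. NRP2, the co-receptor of SEMA3F, measured 5.62, 5.61 and 6.24 against 6.93, 6.10 and 7.55, and the groups overlapped (difference -1.04, adjusted p = 0.017).

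PLXNA4 passed as higher, with 4.68, 4.48 and 4.17 against 3.49, 3.25 and 3.16 (adjusted p = 0.000849 from limma), but no array reached its background. PLXNB2, a receptor of class 4 semaphorins, was above the background on all 6 arrays, at 8.58 ± 0.16 (SD, n = 3) in the clones and 9.07 ± 0.21 (SD, n = 3) in the parental samples, a difference of -0.49 (adjusted p = 0.065). PLXNA1, PLXNA3, PLXNB1, PLXNB3, PLXNC1 and PLXND1 had differences from -0.95 to 0.80 and did not pass. The median of the 11 receptors was -0.49, and it turned to 1.26 after centring on the genes that every cell needs.

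Of 18 measured partners of semaphorin signalling, 13 were higher and 1 was lower in the clones, beside 36.2% and 26.8% of all genes. Their median difference was 1.38, and the clones were above the background on all 3 arrays for 7 of the 13. Differences of partner genes, here and below, are given as deposited alone. DPYSL3, a collapsin response mediator protein, measured 7.40, 7.47 and 7.71 in the clones and 3.59, 4.22 and 4.01 in the parental samples, which were above the background on 1 of 3 arrays (difference 3.59, adjusted p = 3.59e-07 from limma). FYN, a Src family kinase downstream of SEMA3A, measured 9.38, 9.46 and 9.43 against 6.19, 6.56 and 6.24, and rose by 3.10 (adjusted p = 4.90e-07). FES, a kinase that associates with PLXNA1, rose by 2.17 (adjusted p = 1.82e-05), with 1 of 3 parental arrays above the background. The 5 collapsin response mediator genes CRMP1, DPYSL2, DPYSL3, DPYSL4 and DPYSL5 were all called higher as deposited, but the clones were above the background on 3 arrays only for DPYSL2 and DPYSL3, on 2 for DPYSL4, on 1 for CRMP1 and on 0 for DPYSL5. These genes are abundant in neurons. Of 9 measured neuron markers 6 were also higher and 0 lower in the clones, beside 36.2% and 26.8% of all genes. Their summed linear signal was 433 to 502 against 175 to 177. Such sums include the background, which averaged 5.59 in the knockout arrays and 4.14 in the parental arrays on the log2 scale. SYN1, STMN2, ELAVL3 and ELAVL4 were under the background on every array, and MAP2 on every knockout array. The part of other cell types in the result was not tested.

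The 8 ephrins included 4 that were called higher and EFNA1 as the 1 called lower, beside 36.2% and 26.8% of all genes. Another 3 did not pass, and 2 of the 4 rises were above the background in all clones. EFNA1, a ligand of EPHA2 (chromosome 1, 155127876 to 155134899), measured 5.90, 5.46 and 5.81 in the clones and 7.09, 8.35 and 7.21 in the parental samples. The groups did not overlap, parental sample 2 was highest, and EFNA1 fell by 1.83 on the log2 scale (standard error 0.33, adjusted p = 0.000354 from limma) with 2 of 3 clones above the background. After centring on the genes that every cell needs its difference was -0.08 and did not pass. EFNA4 and EFNA3 lie beside it on chromosome 1, at gaps of 0.0093 Mb between EFNA4 and EFNA3 and 0.0403 Mb between EFNA3 and EFNA1, and did not pass, with differences of 0.01 and 0.31.

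EFNA5 (chromosome 5, 107376894 to 107670937) measured 8.62, 8.69 and 8.48 in the clones and 7.45, 7.29 and 7.56 in the parental samples, and rose by 1.16 (standard error 0.21, adjusted p = 0.00044 from limma). The rise of EFNA5 was 0.18 after centring on antigenomic controls and 0.32 after centring on hybridization controls (adjusted p = 0.549 and 0.41), and EFNB2 below was at 0.39 and 0.53. EFNB2, the ligand of EPHB4 in blood vessels, measured 7.0, 7.45 and 7.94 against 5.56, 5.92 and 6.81. It was above the background on all 6 arrays and rose by 1.37 (adjusted p = 0.00337), a call that was lost without clone 32 or 180 or without parental sample 5 or 2 (differences 1.38, 1.13, 1.10 and 1.28, adjusted p = 0.0112, 0.0182, 0.0192 and 0.0109 from limma). The highest parental value of EFNB2 lay just under its lowest clone.

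EFNA2 measured 5.80, 5.70 and 5.64 in the clones and 3.56, 3.41 and 3.54 in the parental samples (adjusted p = 4.23e-06 from limma). It was above the background on 2 of 3 knockout arrays and on no parental array. EFNB3 measured 4.39, 4.40 and 4.59 against 3.02, 3.21 and 3.08 (adjusted p = 0.000138), with every array under its background. EFNB1, a ligand of the EPHB receptors, measured 7.16, 7.45 and 7.17 against 7.81, 8.33 and 7.96, without overlap, and its difference of -0.78 had an adjusted p of 0.00962 but did not reach the fold threshold. The median of the 8 ephrins was 0.74 and turned to -0.24 after centring on antigenomic controls and to -0.10 after centring on hybridization controls.

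Of 13 Eph receptors 4 were higher and 3 lower, beside 36.2% and 26.8% of all genes, and 6 did not pass. The falls were in EPHA1, EPHA2 and EPHA4, each above the background on all parental arrays. EPHA2, the Eph receptor of many epithelial cells and carcinomas (chromosome 1, 16124337 to 16156069), measured 6.34, 6.63 and 6.74 in the clones and 8.57, 8.54 and 8.06 in the parental samples. It was above the background on all 6 arrays and fell by 1.82 (standard error 0.24, adjusted p = 4.09e-05 from limma), but its difference was -0.07 after centring on the genes that every cell needs (adjusted p = 0.849). EPHA4, which binds ephrins of both classes, measured 4.32, 3.94 and 3.99 against 5.57, 6.40 and 6.41 and was at least 1.45-fold lower (adjusted p = 4.71e-05), with a difference of -0.29 that did not pass after the same centring. EPHA1 measured 4.24, 4.46 and 4.93 against 5.90, 5.54 and 5.93 and was at least 1.15-fold lower on the deposited scale (adjusted p = 0.000804 from limma). Its measured difference of -1.25 turned to 0.50 after centring on the genes that every cell needs, where the minimum does not hold.

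None of the 4 rises among the Eph receptors was above the background on all 3 knockout arrays. EPHA8 measured 5.32, 5.86 and 5.79 in the clones and 3.89, 4.14 and 3.86 in the parental samples (adjusted p = 6.04e-05 from limma), with 2 knockout arrays above the background. EPHB1 measured 4.85, 5.64 and 5.31 against 3.86, 3.38 and 3.66 (adjusted p = 0.000164), with 1 knockout array above it. EPHA7 measured 4.76, 4.70 and 4.87 against 3.59, 3.15 and 3.03 (adjusted p = 0.000114), and EPHA10 measured 4.02, 4.91 and 5.48 against 3.64, 3.43 and 3.48 (adjusted p = 0.00391), both with no array above the background. EPHA10 had the widest range over the clones of any member, 1.46, and its call was kept only without clone 26 among the 6 fits that each left out 1 array, with adjusted p from 0.0108 to 0.0183 in the other 5.

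EPHB3 and EPHB4, receptors of the B-type ephrins, were above the background on all 6 arrays. EPHB3 measured 6.71 ± 0.25 (SD, n = 3) in the clones and 6.17 ± 0.09 (SD, n = 3) in the parental samples, and EPHB4 measured 6.48 ± 0.20 and 6.02 ± 0.56 (SD, n = 3 each). Their differences of 0.54 and 0.46 did not pass (adjusted p = 0.0448 and 0.163 from limma). EPHA3, EPHA5, EPHA6 and EPHB6 did not pass either, with differences from -0.29 to 0.95. The median of the 13 receptors was 0.46, and it turned to -0.52 after centring on antigenomic controls and to -0.38 after centring on hybridization controls.

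Of 15 measured partners of ephrin signalling 4 were higher, 1 of them above the background in all clones, and 6 were lower. Over all genes 36.2% were higher and 26.8% lower. The median difference of these partners was -0.83. PTPN13, a phosphatase with PDZ domains that binds B-type ephrins, measured 4.13, 3.88 and 3.65 in the clones and 8.72, 8.42 and 8.30 in the parental samples, and was at least 7.43-fold lower (adjusted p = 7.86e-08 from limma). CHN1, a Rac GTPase-activating protein that acts downstream of EPHA4, measured 8.28, 8.10 and 7.98 against 4.89, 3.96 and 4.71 and rose by 3.60 (adjusted p = 8.01e-07), with 2 of 3 parental arrays above the background. EPHA4 was lower in the same clones, where CHN1 was higher. KALRN measured 5.67, 5.80 and 5.64 against 3.01, 2.29 and 2.71 (adjusted p = 1.21e-06), with 2 of 3 knockout arrays and no parental array above the background.

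Every Slit and Robo gene that was called was higher in CD109-KO cells as deposited. Of 7 genes 6 were called higher and 0 lower (36.2% of all genes were called higher), and for all 7 the clones lay above the parental samples without overlap, beside 48.9% of all genes. SLIT1, ROBO1 and ROBO2 were, however, under the background on every array. That background averaged 5.59 in the knockout arrays and 4.14 in the parental arrays, and its part in their differences was not tested. The knockout arrays were above the background in 3 of 3 for 3 of the 6, SLIT3, ROBO4 and ROBO3. Their median difference was 1.73 as deposited and 1.39 after quantile normalization. It was 3.48, 0.76 and 0.90 after centring on the genes that every cell needs, on antigenomic controls and on hybridization controls. Because each centring shifts every gene alike, the sign of these 3 medians is no further check on the rise. After centring on either kind of control only SLIT3 and ROBO4 were still called.

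SLIT3 (chromosome 5, 168661740 to 169301139), a secreted ligand of the Robo receptors, measured 5.74, 5.81 and 5.98 in the clones and 3.17, 2.65 and 2.85 in the parental samples. It was above the background on every knockout array and on no parental array, and was at least 3.27-fold higher on the deposited scale (adjusted p = 9.45e-07 from limma). The margin over the background of the clones was small, since that background averaged 5.59. Its promoter window, chr5:169301090-169301389 on the minus strand in GRCh38.p14, is shown because SLIT3 was above the background in the clones alone, and holds no CAGGTG on either strand, with no letter in capitals.
SLIT3: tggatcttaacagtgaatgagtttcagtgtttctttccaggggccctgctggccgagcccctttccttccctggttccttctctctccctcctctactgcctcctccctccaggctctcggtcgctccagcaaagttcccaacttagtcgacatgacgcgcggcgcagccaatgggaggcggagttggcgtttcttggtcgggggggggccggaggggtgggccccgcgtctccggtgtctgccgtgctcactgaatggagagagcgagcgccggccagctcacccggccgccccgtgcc
SLIT2 measured 5.11, 5.83 and 5.54 against 3.73, 3.95 and 3.60 (adjusted p = 7.40e-05), with 1 knockout array above the background. SLIT1 measured 4.40, 5.15 and 4.57 against 3.69, 4.01 and 3.34 with no array above the background, and its adjusted p of 0.00489 became 0.0277, 0.0109, 0.0157 and 0.0241 without clone 32, clone 180, parental sample 5 and parental sample 6.

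ROBO4, the Robo receptor of vascular endothelium (chromosome 11, 124883691 to 124897865), measured 7.36, 7.39 and 7.22 in the clones and 5.09, 5.01 and 5.10 in the parental samples. All 6 arrays were above the background, and ROBO4 rose by 2.26 (standard error 0.21, adjusted p = 3.56e-06 from limma). ROBO3, which lies 0.0022 Mb away on the same chromosome, measured 6.01, 5.86 and 6.11 against 4.06, 4.22 and 4.40, and rose by 1.77 (adjusted p = 2.63e-05), with 2 of 3 parental arrays above the background, and by 0.79 and 0.93, without a call, after centring on antigenomic and on hybridization controls. ROBO2 and ROBO1, a pair of neighbours on chromosome 3, were under the background on all arrays, and ROBO2 passed (adjusted p = 0.000257) while ROBO1 did not reach the fold threshold (adjusted p = 0.00656). Of 9 endothelial markers 5 were also higher in the clones and 0 lower, beside 36.2% and 26.8% of all genes. Their summed signal was 459 to 492 against 195 to 203, and includes the background, which was higher in the knockout arrays. PECAM1, KDR, TEK and EMCN lay below the background on every array, and CDH5 lay below it on every knockout array.

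Of 12 measured partners of Slit and Robo signalling 1 was called higher and 6 were called lower, beside 36.2% and 26.8% of all genes. Their median difference was -0.94, and the 1 rise, FLRT3, was under the background on every array. USP33, a deubiquitinase that binds ROBO1, measured 3.16, 2.45 and 2.60 in the clones and 7.48, 6.82 and 7.41 in the parental samples, and was at least 3.14-fold lower (adjusted p = 1.98e-07 from limma). SRGAP1, which binds Robo receptors, was at least 2.69-fold lower (adjusted p = 2.09e-06), and SOS1, a Ras and Rac exchange factor, was at least 5.50-fold lower (adjusted p = 4.36e-06). All 3 were below the background in every clone and above it in every parental sample.

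Netrins and their receptors comprised 11 genes, of which 6 were called higher and 1 lower, beside 36.2% and 26.8% of all genes. Of the 6 rises 4 were above the background in all clones, and 4 genes did not pass. The single fall was also the member with the lowest adjusted p of all 69. NTN4 (chromosome 12, 95657807 to 95791155), a netrin of basement membranes that binds laminin, measured 5.74, 6.35 and 5.46 in the clones and 9.52, 9.88 and 9.42 in the parental samples. Clones 26 and 32 were above the background and clone 180 was not, and NTN4 fell by 3.76 (standard error 0.27, adjusted p = 6.18e-07 from limma). Its promoter window, the most upstream of 2, is chr12:95791106-95791405 on the minus strand in GRCh38.p14 and holds no CAGGTG on either strand.
NTN4: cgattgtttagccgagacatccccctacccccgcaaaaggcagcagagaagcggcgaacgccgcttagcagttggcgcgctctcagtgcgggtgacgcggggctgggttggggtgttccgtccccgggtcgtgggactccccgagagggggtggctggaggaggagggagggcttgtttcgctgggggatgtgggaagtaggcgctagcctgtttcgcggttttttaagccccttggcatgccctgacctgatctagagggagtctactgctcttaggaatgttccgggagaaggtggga

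Called members among the other secreted netrins were higher in the clones. NTN5 (chromosome 19, 48661407 to 48673017) measured 5.79, 5.68 and 5.95 in the clones and 4.0, 3.89 and 3.90 in the parental samples. It was at least 3.18-fold higher on the deposited scale (adjusted p = 1.42e-05 from limma). NTN3 measured 5.86, 5.98 and 5.91 against 4.19, 4.24 and 4.13, and rose by 1.74 (adjusted p = 2.10e-05). Both lay close to the background, NTN3 in the 2 groups and NTN5 in the clones. After centring on antigenomic controls the differences of NTN5 and NTN3 were 0.90 and 0.76, and neither was called. The minimum given for NTN5, 1.67 on the log2 scale, does not hold there. NTN1, the best studied axon attractant of the family, measured 7.90, 7.51 and 7.47 against 6.54, 7.31 and 6.10, without overlap, and did not pass (difference 0.98, adjusted p = 0.0123).

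NTNG2, a membrane-anchored netrin that binds LRRC4, measured 7.36, 7.06 and 7.14 in the clones and 5.23, 5.47 and 5.07 in the parental samples, and rose by 1.93 (standard error 0.22, adjusted p = 1.65e-05 from limma), a call that was kept at 1.10 after centring on hybridization controls and lost at 0.95 after centring on antigenomic controls. Its partner LRRC4 measured 7.13, 7.03 and 6.72 against 4.76, 5.03 and 4.81 and rose by 2.09 (adjusted p = 9.92e-06). Ligand and partner were above the background on all 6 arrays. NTNG1 (adjusted p = 0.000273) and DCC (adjusted p = 0.00802) passed with every array under the background, and DCC lost its call without clone 26, clone 32, parental sample 2 or parental sample 6 (adjusted p from 0.0202 to 0.0383).

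Of the 4 UNC5 receptors 1 was called higher and 0 lower, beside 36.2% and 26.8% of all genes, and 3 did not pass. UNC5A (chromosome 5, 176810559 to 176880898) measured 6.81, 6.88 and 6.67 in the clones and 4.96, 5.01 and 4.85 in the parental samples, and rose by 1.85 (standard error 0.21, adjusted p = 1.53e-05 from limma), and was not called after centring on antigenomic controls (difference 0.87) or on hybridization controls (adjusted p = 0.0107). UNC5B measured 7.46, 7.26 and 7.65 against 8.18, 8.62 and 8.41, also above the background on all arrays and without overlap, and its difference of -0.95 missed the fold threshold (adjusted p = 0.00271). That difference was -0.21 after quantile normalization (adjusted p = 0.43 from limma) and 0.80 after centring on the genes that every cell needs. UNC5C and UNC5D were never above the background and did not pass. The median over netrins and receptors was 1.03, and it was 0.05 after centring on antigenomic controls.

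Of 15 measured netrin partners and related ligands 8 were higher, 5 of them above the background in all clones, and 4 were lower. Over all genes 36.2% were higher and 26.8% lower. RGMA, a GPI-anchored repellent that binds neogenin, measured 9.58, 9.36 and 9.43 in the clones and 5.43, 5.97 and 5.43 in the parental samples, and rose by 3.85 (adjusted p = 2.00e-07 from limma). Its receptor NEO1 was also called higher, by 1.31 (adjusted p = 0.000826). ABLIM1, an actin-binding LIM protein whose worm counterpart acts in netrin signalling, measured 5.14, 3.69 and 4.53 against 10.19, 10.33 and 10.42, and was at least 26.5-fold lower (adjusted p = 1.20e-07).

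The spread within the groups was larger among parental samples for many of these genes, as over the array as a whole. The median SD of the guidance genes was 0.23 in the clones and 0.29 in the parental samples, and that of all genes 0.24 and 0.30. The median range over 3 arrays was 0.43 in the clones and 0.56 in the parental samples, and it exceeded 1 log2 unit for 3 members in the clones and for 17 in the parental samples. Parental sample 2 was the highest of its group for 34 of 69 members and parental sample 6 the lowest for 30, whereas each clone was highest for 22 to 24. The 3 members with a wide range in the clones were EPHA10, SEMA3A and NRP1.

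Markers of mesenchymal cells differed as well, most but not all of them upward. Of 11 measured fibroblast markers 8 were higher and 1 was lower in the clones, beside 36.2% and 26.8% of all genes. Their summed linear signal was 4335 to 5122 against 400.03 to 455, and COL1A2 was the brightest in the clones, at 11.68, 11.69 and 11.94. LUM, the 1 fall, was above the background in the parental arrays alone and at least 1.54-fold lower (adjusted p = 1.07e-06 from limma). FAP and PDPN did not pass, and PDPN was lower by 0.63 without overlap. COL1A1 and COL1A2 were above the background on all 6 arrays, and FAP, PDGFRA and POSTN on none. Of 6 Schwann cell and neural crest markers 4 were higher and 1 lower, and of 6 blood cell markers 4 were higher and 1 lower, beside the same shares of all genes. Their part in the result was not tested.

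The direction of many smaller differences depended on the level against which the arrays were set. The genes that every cell needs were 1.75 lower in the clones on the log2 scale, whereas antigenomic controls, which match no human sequence, were 0.98 higher and hybridization controls 0.84 higher. Centring on the first called 50 members higher and 3 lower, centring on the second 6 and 24, and centring on the third 7 and 22. SEMA3A, SEMA3C and NTN4 were called lower, and EFNA2, SEMA6A, SEMA5B, SEMA3G, SLIT3 and ROBO4 higher, under each of these scalings and as deposited. All 13 falls remained called after centring on either kind of control, which is no check on them, because it lowers every difference by 0.98 or 0.84. After centring on the genes that every cell needs, 3 of the 13 remained called.

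**Figure D4:**
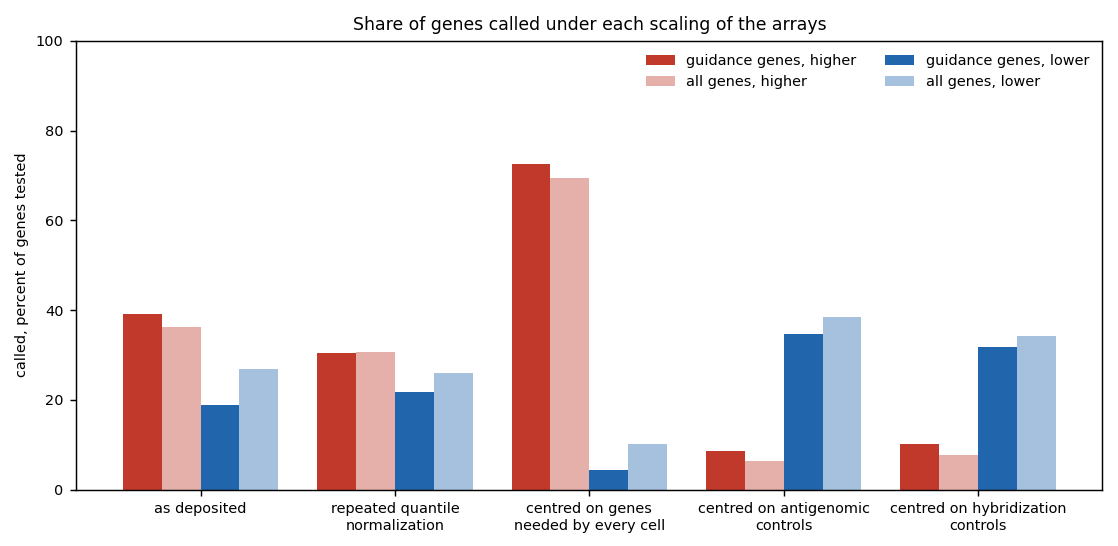
Percent of genes called higher or lower in CD109-KO cells (y axis) under 5 scalings of the arrays (x axis), for the 69 guidance genes and for all 17687 genes. Rises exceed falls as deposited, after quantile normalization and after centring on genes that every cell needs, the order turns after centring on either control, and the bars of the guidance genes stand near those of all genes.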

How the data were processed

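Total RNA from 3 clones of CD109-KO cells and 3 samples of parental A431 was hybridised to Clariom S human arrays. The authors deposited log2 signals for 24351 probe sets, after normalization and background correction with Gene Expression Console (Affymetrix). Transcriptome Analysis Console and hg38 are named in the submitters' processing notes, and the sources used here do not give the normalization algorithm. They were used as deposited. Of 21448 gene probe sets, 17709 carry 1 symbol in the platform annotation and 3739 are unnamed here, and 2903 probe sets are controls that the test did not include. For the 20 genes with several probe sets, the one with the highest mean stood for the gene. Coordinates and promoters are those of RefSeq for GRCh38.p14.

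CD109-KO minus parental was fitted with lmFit and eBayes in limma 3.58.1 under R 4.3.3, with Benjamini-Hochberg adjustment over all gene probe sets and thresholds of 0.01 and a fold change of 2, as in the study. The fit was tested on simulated data. Where the brighter group lay above the background on 3 of 3 arrays and the dimmer on 0, the fold is a bound, set between the mean of the brighter group and the mean of the higher of background and signal in the dimmer. The bound takes the deposited scale as given and does not allow for the difference in background between the groups. It is no minimum under another scaling. Members, partner lists, markers and tests were chosen with earlier results of these data known. In each family, up to 4 of the largest rises and falls without overlap are given array by array, with up to 3 called genes per partner list. NEO1, EPHB3, EPHB4, PLXNB2 and other members beyond these were named after their values were seen. Alternatives were another prior, the methods' t-test, quantile normalization, centring on 32 genes every cell needs or on controls, a filter on dim probe sets, other thresholds and leaving out each array. The number of arrays limits the precision.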

Additional observations from a re-analysis of the deposited data

How the results depend on the processing

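The counts of 27 guidance genes higher and 13 lower were the same with a trend and robust prior and with all probe sets of the members. After Benjamini-Hochberg adjustment the methods' t-test gave 22 and 8, and quantile normalization 21 and 15. Centring on the genes that every cell needs gave 50 and 3, on antigenomic controls 6 and 24, and on hybridization controls 7 and 22. Keeping only probe sets brighter than the background on at least 3 of 6 arrays left 49 members and gave 14 and 13, the same counts as when the brighter group had to lie above the background. A minimum fold of 4 gave 6 and 5, and no minimum fold 30 and 17. Over all genes, the t-test gave 4391 and 3140 against 6410 and 4746, and the 3 centrings 12260 and 1789, 1117 and 6795, and 1360 and 6061. Leaving out each array gave 24 to 26 higher and 13 to 15 lower, and CD109 lay between -4.37 and -4.09. Without 1 array, 35 of the 40 called members were always called, and DCC, EFNB2, EPHA10, SEMA4D and SLIT1 were not. No paired analysis was possible because the groups share no replicate numbers. A call held under every alternative run for single genes, the fold of 4 included, for 9 of the 40, namely SEMA3A, SEMA3C, NTN4, SEMA6A, SEMA5B, SEMA3G, SLIT3, ROBO4 and EFNA2, the last of which the filter left untested.

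Several single differences changed sign, and the cause was not tested beyond the shift that each centring itself applies. After quantile normalization EPHA6 was at -0.18, EPHA3 at -0.0024, SEMA3E at -0.36, SEMA6C at -0.075, PLXNA1 at 0.30 and PLXNB2 at 0.52. After centring on the genes that every cell needs the called members EPHA1, SEMA4A, SEMA3F and PLXNA2 were at 0.50, 0.33, 0.32 and 0.27, and the members that had not passed were at 0.97 (EFNB1), 1.46 (EPHB6), 1.34 (SEMA4C), 0.83 (SEMA6D), 1.49 (PLXNA3), 1.35 (PLXNA1), 1.26 (PLXNB2), 0.99 (PLXND1), 0.80 (PLXNC1), 0.71 (NRP2) and 0.80 (UNC5B). After centring on antigenomic controls no called member changed sign, and the others were at -0.67 (EFNA3), -0.97 (EFNA4), -0.029 (EPHA5), -0.44 (EPHB3), -0.52 (EPHB4), -0.61 (EPHA6), -0.67 (EPHA3), -0.42 (SEMA4F), -0.47 (SEMA4G), -0.65 (SEMA7A), -0.79 (SEMA3E), -0.81 (SEMA6C), -0.18 (PLXNB3), -0.51 (PLXNB1), -0.10 (ROBO1), -0.0014 (NTN1), -0.0041 (UNC5D) and -0.38 (UNC5C). After centring on hybridization controls they were at -0.53 (EFNA3), -0.83 (EFNA4), -0.30 (EPHB3), -0.38 (EPHB4), -0.47 (EPHA6), -0.52 (EPHA3), -0.28 (SEMA4F), -0.33 (SEMA4G), -0.50 (SEMA7A), -0.65 (SEMA3E), -0.67 (SEMA6C), -0.035 (PLXNB3), -0.37 (PLXNB1) and -0.24 (UNC5C). Leaving out 1 array turned 5 members that had not passed, with ranges of -0.17 to 0.23 (EFNA4), -0.57 to 0.024 (PLXNA3), -0.11 to 0.63 (EFNA3), -0.071 to 0.42 (SEMA3E) and -0.041 to 0.51 (SEMA6C).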
